A study of Mus musculus with 18 samples.

Results

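The genes described are 7 noncoding RNAs grouped as abundant products of RNA polymerase III or parts of enzymes: Rpph1, Rmrp, Rn7s6, Rny1, Rny3, Terc and a gene listed as ENSMUSG00000065037. They were chosen by their read counts over all 18 libraries of mouse embryonic fibroblasts (MEFs), as genes with many counts, so their abundance is not a finding. They are 7 of the 55487 genes in the table, and 6 of the 7 had any count. MEFs are cells of the connective tissue that are cultured from mouse embryos. They were kept for 24 h in growth medium with serum to which no uracil (control), 10 µM uracil or 30 µM uracil was added, with 6 libraries per dose numbered 1 to 6 in the labels. Total RNA was read as stranded paired ends, and the comparison of doses asks whether uracil, the base released from uridine by uridine phosphorylase, altered the RNA content of fibroblasts. The study's methods describe the libraries of a dose as biological replicates, and the labels do not say whether they came from separate embryos or cultures. The p-values measure the spread between these libraries.

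RNase P, whose RNA is Rpph1, cuts the leader from precursor transfer RNAs, and RNase MRP, whose RNA is Rmrp, cuts precursor ribosomal RNA. Both are ribonucleoproteins that share most of their proteins. Rn7s6 belongs to the 7SL family, the RNA scaffold of the signal recognition particle, which brings ribosomes that make secreted proteins to the endoplasmic reticulum. Y RNAs such as Rny1 and Rny3 are short stem-loop RNAs bound by the Ro and La proteins, and Terc is the template RNA of telomerase. Terc is made by RNA polymerase II, and Rpph1, Rmrp, the 7SL RNAs and the Y RNAs are made by RNA polymerase III. The annotation used here (GENCODE M39 on GRCm39) holds no entry for ENSMUSG00000065037, so it has no position, length or role here and is called by its identifier.

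The Y RNA genes lie 6343 bases apart on chromosome 6 and are read from opposite strands, Rny3 at chr6:47758558-47758659 on the plus strand (102 bases) and Rny1 at chr6:47765003-47765114 on the minus strand (112 bases). Their sequences are shown because the pair moved together and because a read must tell them apart. Capitals mark the 5 runs of at least 7 bases that both hold, 42 bases in all with the longest of 12, and both transcripts end in 4 T.
Rny1: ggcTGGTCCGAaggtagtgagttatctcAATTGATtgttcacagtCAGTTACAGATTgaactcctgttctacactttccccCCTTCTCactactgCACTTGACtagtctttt
Rny3: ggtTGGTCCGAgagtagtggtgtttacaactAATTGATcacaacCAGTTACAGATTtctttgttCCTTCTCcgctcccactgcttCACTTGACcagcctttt
Over the alignment of 112 positions, 81 were identical (72.3%), and no stretch of either as long as a read (75 bases) occurs elsewhere in the genome. Both are annotated exons of noncoding genes, and newer long noncoding entries that cover Rny3 and Rny1 are not in the count table.

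Rn7s6 lies at chr6:69493323-69493613 on the plus strand (291 bases). Its first 214 bases align to Rn7s1, a 7SL gene that is not in the count table, with 3 mismatches (98.6% identity). The last 77 bases lie outside that alignment. Of the 217 read-length windows of Rn7s6, 99 (45.6%) occur without a mismatch at other loci of the genome, 2 in all. The table keeps pairs that align to several places apart from the gene counts. The share of such windows was 0% for Rpph1, Rmrp, Rny1, Rny3 and Terc.

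Rmrp lies at chr4:43492783-43493063 on the minus strand (281 bases). A second Rmrp entry of 271 bases lies inside it on the same strand and had 0 counts in all 18 libraries. By these positions each of its bases is also one of the first entry, so no pair could fall on the second alone. The 0 therefore tells nothing of its level. How many pairs were lost to the first entry through this overlap was not counted. Capitals mark the 5 bases at each end that the second entry lacks.
Rmrp: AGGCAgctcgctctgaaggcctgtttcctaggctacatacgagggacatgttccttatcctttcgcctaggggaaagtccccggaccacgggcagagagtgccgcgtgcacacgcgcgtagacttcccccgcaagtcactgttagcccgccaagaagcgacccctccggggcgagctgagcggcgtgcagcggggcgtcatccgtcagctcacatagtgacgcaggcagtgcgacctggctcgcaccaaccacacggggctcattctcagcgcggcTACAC
On the opposite strand, 164 bases of Rmrp overlap the protein-coding gene Ccdc107, which had 21.96 to 36.7 CPM (counts scaled to 1e6 gene counts per library).

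Rpph1 lies at chr14:51044906-51045224 on the minus strand (319 bases), inside an exon of Ccnb1ip1 on the same strand, and 277 of its bases overlap Parp2 on the opposite strand. Ccnb1ip1 had 114 counts in all libraries together and Parp2 17.99 to 29.1 CPM, far below Rpph1. Bases 20 to 319 of Rpph1 are shown, with capitals for the 42 bases that no gene covers on the other strand.
Rpph1: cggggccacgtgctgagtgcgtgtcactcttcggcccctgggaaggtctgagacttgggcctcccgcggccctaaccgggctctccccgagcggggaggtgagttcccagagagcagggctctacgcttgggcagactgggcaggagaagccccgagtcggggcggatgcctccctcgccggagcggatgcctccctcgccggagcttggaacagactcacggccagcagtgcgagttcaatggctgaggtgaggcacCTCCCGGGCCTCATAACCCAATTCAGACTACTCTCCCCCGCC
Terc, at chr3:96321753-96322149 on the minus strand (397 bases), has a second entry in the annotation that is not in the count table.

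A library held 3.96 to 20.8 M gene counts (255.2 M in all, where M stands for 1e6). In 3 libraries more than 5% of read pairs were unaligned: control replicate 1 (54.2%, 3.96 M gene counts), 30 µM replicate 6 (37.9%, 7.39 M) and 10 µM replicate 6 (5.24%, 14.7 M). The other 15 had 1.72% to 3.59% unaligned and 11.6 to 20.8 M gene counts. The study's methods set aside a vehicle sample and a sample of the highest uracil dose for human RNA. The labels do not name them. Control replicate 1 and 30 µM replicate 6 have the doses of those samples and had the most unaligned pairs. Whether they are those samples cannot be told from the labels and was not tested. All libraries were therefore kept, and dose estimates of the model that rest on these 3 are given with and without them. The ranges and means of shares by dose and the permutation tests include them, apart from a second set of means for Rpph1. Of 12 fibroblast markers 10 reached 10 CPM in every library (26092 to 50107 CPM summed), while 4 of 5 blood cell markers stayed under 1 CPM in every library (0.271 to 1.68 CPM summed). The endothelial list summed to 5.27 to 8.75 CPM, the pluripotent list to 0.406 to 1.21 CPM and the epithelial and mesothelial list to 24.2 to 187 CPM.

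Together the 7 genes took 1.08% to 1.93% of the gene counts of a library. ENSMUSG00000065037 and Rpph1 held 98.3% of these counts, with 2527061 and 1646160 counts and ranks 2 and 8 among all genes. Rmrp (25175 counts, rank 2156), Rny3 (21810, rank 2508) and Rny1 (17959, rank 3108) came far behind. Rn7s6 ranked 6442 with 6948 counts. Thus Rn7s6, and Terc with no count, are not among the most counted genes of the table, although they were proposed as such.

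Terc had 0 counts in each of the 18 libraries. Counting error alone would allow up to 3 counts, or 0.144 to 0.757 CPM in a single library. Genes for its protein partners were counted: all 8 telomerase protein genes, which include the reverse transcriptase Tert and the pseudouridine synthase Dkc1, passed the filter on low counts. The newer Terc entry was not analysed here.

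Levels were compared between genes per kilobase of transcript, in CPM per kilobase over the 15 libraries with at most 5% unaligned pairs. Rpph1 had a median level of 20484 (17078 to 25995), 25.9 times that of Rny3 at 792 (361 to 1167). Rny1 followed at 636 (316 to 841), Rmrp at 327 (218 to 542) and Rn7s6 at 57.7 (38.99 to 925). Rny3 and Rny1 overlapped in range, but Rny3 stood above Rny1 in 18 of 18 libraries. Rny1 and Rmrp also overlapped, with Rny1 higher in 17 of 18. Without control replicate 6 the highest level of Rn7s6 in these libraries was 82.8, below the lowest level of Rmrp. The order of the Y RNAs and Rmrp rests on the division by length. In CPM their medians were 91.8 for Rmrp, 80.8 for Rny3 and 71.2 for Rny1. The counts of Rmrp and Rn7s6 are also uncertain, since Rmrp overlaps a second entry and 45.6% of Rn7s6 windows occur at other loci. The distance of Rpph1 from the Y RNAs is uncertain as well. Rny3 holds 28 and Rny1 38 windows as long as a read, against 245 in Rpph1. How much of such short RNAs the libraries kept was not tested, so the 25.9 compares counts per length and not amounts of RNA.

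The shares that follow are CPM of gene counts without further scaling. In bulk RNA, fewer cells of a kind and less RNA per cell cannot be told apart. Rpph1 had 3785 (lowest), 6011 (median) and 7370 CPM (highest) in the control libraries, 5091, 6517 and 7932 at 10 µM and 5713, 6585 and 8292 at 30 µM. The 3 ranges overlapped, and the lowest value of all was that of control replicate 1. The mean share was 5932 ± 1282 in control, 6544 ± 903 with 10 µM uracil and 6737 ± 867 CPM with 30 µM (SD over 6 libraries). Without the 3 libraries with over 5% unaligned pairs it was 6362 ± 820, 6835 ± 621 and 6814 ± 946 CPM (SD over 5 libraries).

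ENSMUSG00000065037 had 9228, 9955 and 11538 CPM in control, 7393, 10247 and 11051 at 10 µM and 4289, 9923 and 11503 at 30 µM. Its libraries lay close together apart from 10 µM replicate 6 and 30 µM replicate 6, which were the lowest of their doses. Over the 15 other libraries its coefficient of variation was 7.05%, less than the 11.7% of Rpph1. It exceeded Rpph1 in 17 of 18 libraries, at 1.11 to 1.80 counts per Rpph1 count in the 15 libraries.

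Rmrp had 29.0, 85.1 and 126 CPM in control, 69.6, 91.6 and 152 at 10 µM and 34.1, 79.9 and 151 at 30 µM. Its doses overlapped throughout. Rny1 had 55.5, 70.7 and 206 CPM in control, 57.3, 71.9 and 91.7 at 10 µM and 28.1, 62.4 and 88.1 at 30 µM. Rny3 had 69.6, 91.6 and 317 CPM in control, 70.4, 78.5 and 119 at 10 µM and 36.8, 76.8 and 96.1 at 30 µM. For both Y RNAs the highest value belonged to control replicate 1, and the low values at 30 µM to replicates 5 and 6.

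Rn7s6 had 7.32, 18.1 and 269 CPM in control, 11.5, 16.8 and 23.3 at 10 µM and 11.3, 13.3 and 17.2 at 30 µM. The value of 269 CPM (3124 counts) belonged to control replicate 6. The other 17 libraries had 7.32 to 24.1 CPM, so this library was 11.2 times the next highest.

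**Figure D1:**
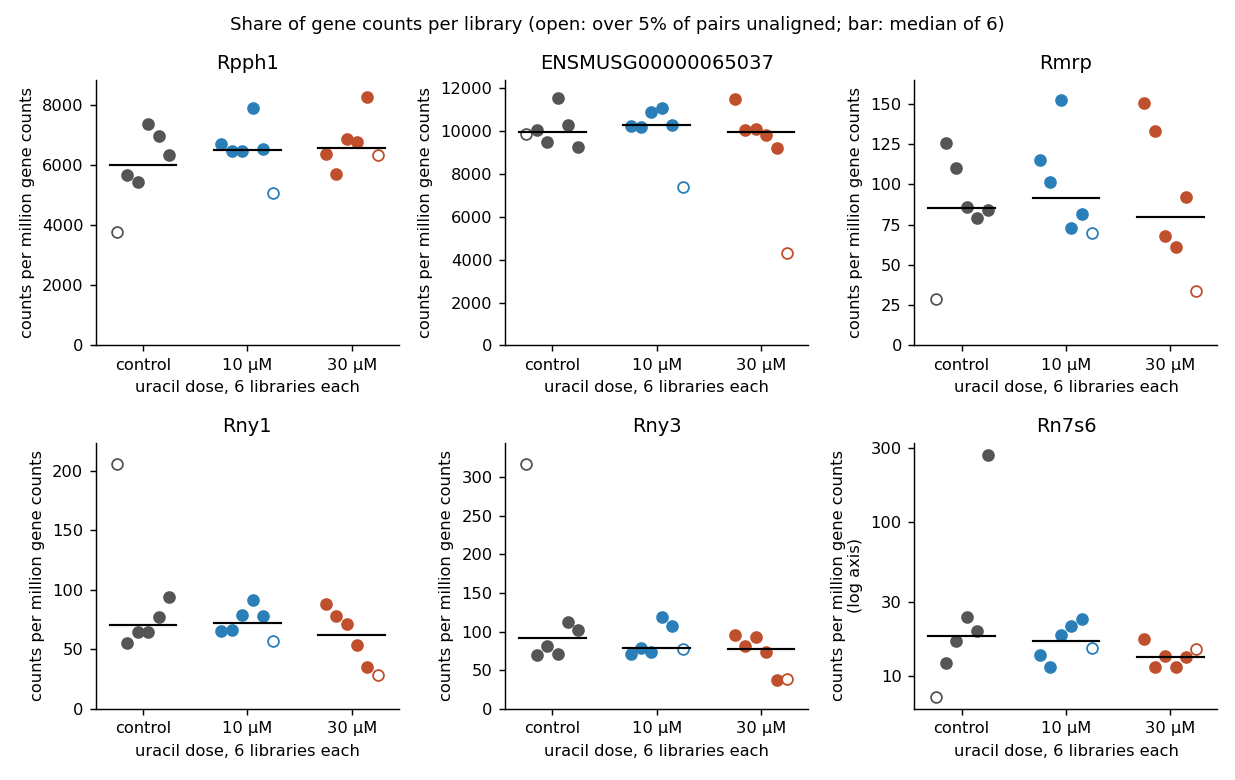
Share of gene counts (CPM) of the 6 counted genes in the 18 libraries by uracil dose. Each point is a library, open points are the 3 libraries with over 5% of pairs unaligned, bars are medians of 6, and the axis of Rn7s6 is logarithmic; the ranges of the doses overlap for every gene, and control replicate 6 stands at 269 CPM for Rn7s6.

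None of the 7 genes passed the threshold in a dose comparison. In edgeR's quasi-likelihood test on all 18 libraries with Benjamini-Hochberg adjustment, 0 of the 6 genes tested were called at 10 µM, at 30 µM or for any difference among the doses. DESeq2 and limma voom with quality weights also called 0 of the 6. The background in edgeR was 0% as well, that is, 0 of 13865 genes in each of these 3 comparisons. By unadjusted p under 0.05, Rn7s6 passed at 10 µM, Rn7s6 and Rny3 passed at 30 µM and Rn7s6 passed across the doses, against 0.692%, 4.29% and 1.53% of all genes. The log2 fold changes of the model follow as estimates.

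For Rpph1 the log2 fold change was 0.13 ± 0.12 (SE) at 10 µM and 0.22 ± 0.12 at 30 µM. The 95% interval at 30 µM ran from -0.05 to 0.48. In the 15 libraries with at most 5% unaligned pairs the estimate for Rpph1 was 0.10 ± 0.10 at 10 µM and 0.10 ± 0.10 at 30 µM. For ENSMUSG00000065037 it was -0.03 ± 0.14 at 10 µM and -0.13 ± 0.14 at 30 µM, with an interval of -0.43 to 0.17 at 30 µM. These were the narrowest intervals of the group, and they hold changes of under 0.5 on the log2 scale in either direction.

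Rmrp had 0.19 ± 0.33 at 10 µM and 0.08 ± 0.33 at 30 µM, an interval of -0.61 to 0.77 at 30 µM. In the 15 libraries with at most 5% unaligned pairs Rmrp had 0.10 ± 0.28 and 0.06 ± 0.28. Rny1 had -0.37 ± 0.32 and -0.64 ± 0.32, and Rny3 -0.54 ± 0.36 and -0.83 ± 0.36 at 10 and 30 µM (adjusted p = 0.931 for Rny3 at 30 µM). The estimates for the Y RNAs rested in large part on control replicate 1. Without it they were 0.04 and -0.23 for Rny1 and 0.01 and -0.29 for Rny3. In the 15 libraries with at most 5% unaligned pairs they were 0.09 ± 0.21 and -0.11 ± 0.22 for Rny1, and 0.03 ± 0.24 and -0.19 ± 0.24 for Rny3.

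Rn7s6 had the largest estimates, -1.76 ± 0.68 at 10 µM (unadjusted p = 0.0194, adjusted p = 1.00) and -2.06 ± 0.70 at 30 µM (unadjusted p = 0.00890, adjusted p = 0.931). Without control replicate 6 they were 0.06 and -0.23. The remaining 5 control libraries had 15.9 ± 6.50 CPM (SD), beside 17.2 ± 4.53 for the 6 libraries at 10 µM and 13.6 ± 2.22 for the 6 at 30 µM. In the 15 libraries, which keep control replicate 6, the estimates were -1.95 ± 0.80 and -2.32 ± 0.83. With limma voom and quality weights on all 18 libraries they were -0.58 and -0.88 (adjusted p = 0.954 and 0.734).

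Exact two-sided permutation tests of the mean share, 6 against 6 libraries, needed no model. Over 12 tests the unadjusted p ran from 0.126 (Rny3 at 30 µM, 69.8 ± 26.1 against 126 ± 95.2 CPM) to 0.931, where the smallest p the 924 permutations can give is 0.00216. The control mean of Rny3 includes control replicate 1 at 317 CPM, and these tests were not run without the libraries with many unaligned pairs. For Rn7s6 the permutation p was 0.643 at 10 µM and 0.212 at 30 µM. In the 15 libraries 0 of the 6 genes were called in the 3 dose comparisons, as were 0 of 13888 genes (0%).

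**Figure D2:**
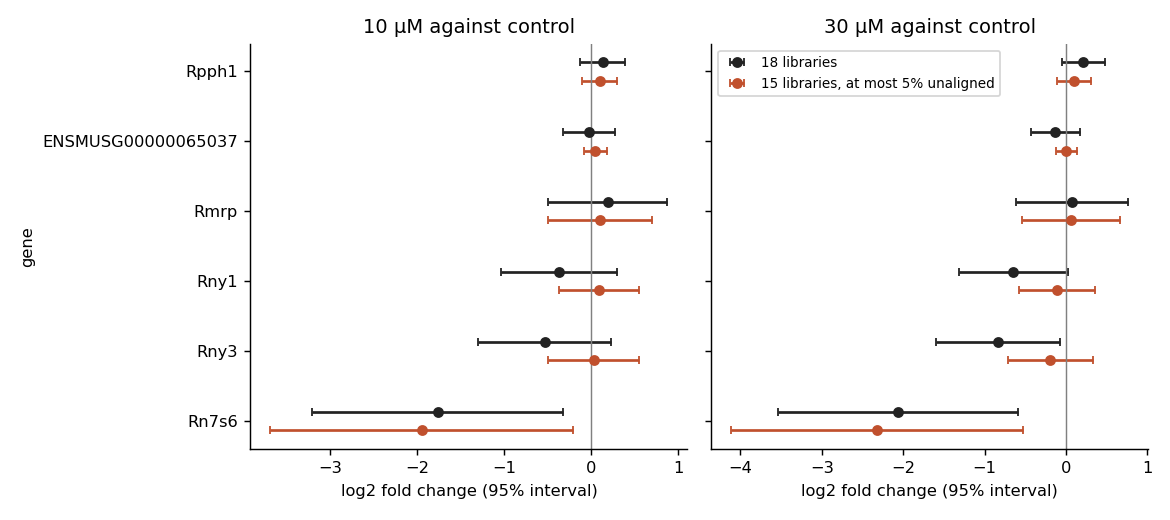
Log2 fold changes (points) with 95% intervals (lines) of 6 genes for 10 µM and 30 µM uracil against control, from the model over all 18 libraries (black) and over the 15 with at most 5% of pairs unaligned (orange). The Y RNAs move from -0.64 and -0.83 to -0.11 and -0.19 at 30 µM, while Rn7s6 stays at or below -1.76 in both, with control replicate 6 in both.

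The standing of Rn7s6 in control replicate 6 was compared with that of other genes. Each gene's share there was divided by its median over the other 17 libraries, for the 12964 genes with a median of at least 1 CPM. Rn7s6 had a ratio of 18.1, and 0 genes had a higher one. It was the only gene of the 12964 at 5-fold or more. The next ratios, found after the values were seen, were 4.30 for A230006K03Rik and 3.56 for Vnn1.

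The other members stood closer to their medians in that library. Rpph1 stood at 0.976 of its median there, Rmrp at 0.974 and ENSMUSG00000065037 at 0.917. Rny1 and Rny3 stood at 1.43 and 1.29. Control replicate 6 had 2.49% of its pairs unaligned, within the range of the other libraries, and 11.6 M gene counts, the lowest of the 15. Its share of pairs under the alignment quality limit was 11.7%, above that of every library but 30 µM replicate 5 (13.1%). Whether this bears on Rn7s6 was not tested.

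**Figure D3:**
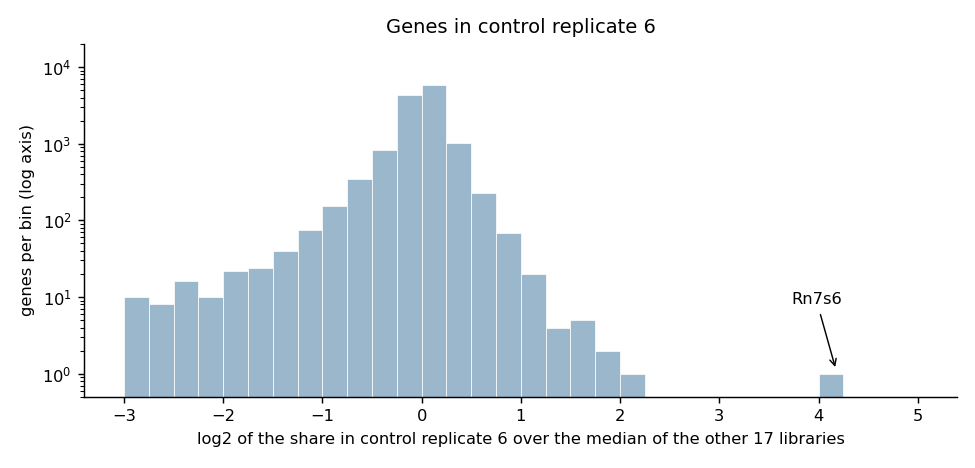
Number of genes (log axis) by the log2 ratio of their share in control replicate 6 to the median of the other 17 libraries, for 12964 genes. Rn7s6, at a ratio of 18.1, lies apart from all other genes, the next of which reaches 4.30; ratios under the left end are drawn in the first bar.

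The replicate number gives a second grouping, with 3 libraries per number. None of the 6 genes was called for replicate number with dose in the model, while 12.6% of all genes were (1745 of 13865). The smallest adjusted p was that of ENSMUSG00000065037 (0.0837). Its median share was 10055 CPM for the libraries numbered 2 but 7393 CPM for those numbered 6, and 2 of the 3 libraries numbered 6 have over 5% of pairs unaligned.

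In the 15 libraries 20.8% of all genes (2890 of 13888) were called for number, and Rn7s6 was the only one of the 6 (adjusted p = 5.84e-05). Number 6 then consists of control replicate 6 alone. ENSMUSG00000065037 had an adjusted p of 0.324 there. The number and that single library cannot be told apart.

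For replicate number Rmrp had the largest adjusted p of the 6 genes in the 18 libraries (0.561, edgeR). Rmrp exceeded 100 CPM in 7 libraries, and 7 of these 7 are numbered 1 to 3. In the 15 libraries it had 68.0, 121 and 152 CPM (lowest, median and highest) in the 8 numbered 1 to 3, and 61.4, 81.7 and 91.8 CPM in the 7 numbered 4 to 6. The ranges overlapped through 30 µM replicate 3 at 68.0 CPM. This split was noticed in the data and has no test.

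**Figure D4:**
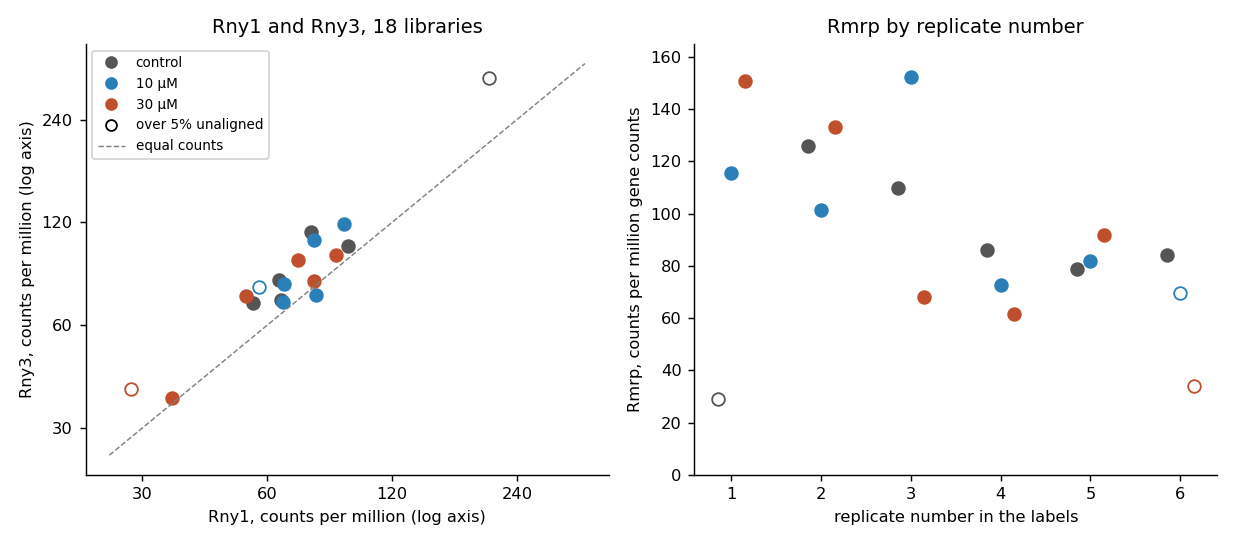
Left, Rny3 against Rny1 in CPM on log axes in 18 libraries, with the line of equal counts; 17 of 18 points lie above the line, from 30 µM replicate 6 and 30 µM replicate 5 up to control replicate 1, and 10 µM replicate 3 lies below it. Right, Rmrp in CPM by replicate number, with the same colours for dose and open points for libraries with over 5% of pairs unaligned; the 7 values over 100 CPM are at numbers 1 to 3.

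Rny1 and Rny3 were the pair of members that varied together. Over the 15 libraries Pearson's r of their log2 CPM was 0.888 (Spearman's rho 0.779), and 0.726 without the 2 libraries farthest from the median of Rny1. For the other 14 pairs r lay between -0.475 and 0.460, so that Rmrp and Rpph1, the RNAs of enzymes with shared proteins, had an r of -0.475. Libraries share depth and composition, and these values are descriptions only.

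The ratio of Rny3 to Rny1 counts was 0.934 to 1.47 in the 15 libraries (median 1.199), with more Rny3 in 14 of 15. In control replicate 1, where both were high, it was 1.54. At the other end, 30 µM replicate 5 had 35.4 CPM of Rny1 and 36.8 CPM of Rny3. These were 0.478 and 0.455 of the medians of the other 14 libraries, 74.0 and 81.0 CPM.

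In 30 µM replicate 5 Rpph1 was instead the highest of all libraries at 8292 CPM, 1.27 times the median of the 14 others. Its pairs were unaligned in 3.59%, the most of the 15. The share of pairs under the alignment quality limit was 13.1% there, the most of the 18. Whether either bears on the Y RNAs was not tested.

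The genes most like each member were taken as those with the highest r over the same 15 libraries, among 9385 genes with a mean of at least 10 CPM. For Rpph1 these included the ribosomal protein genes Rpl10a (r = 0.935) and Rpl15 (0.923). For ENSMUSG00000065037 they were Nudt2 (0.934), Rps7 (0.852) and Rps15a (0.843), and for Rny1 Rpl30 (0.862), Rpl37rt (0.826) and Rps13 (0.822). Ribosomal protein genes are many and vary together, and the highest of 9385 values is large by selection.

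For Rny3 they were ENSMUSG00000095676 (0.859), Nfe2l2 (0.838) and Snhg1 (0.817), and for Rmrp Tmsb10b (0.861), Ptprm (0.830) and Tpm2 (0.829). For Rn7s6 they were Utp23 (0.890), Fhl1 (0.889) and Gnl3l (0.849), with control replicate 6 among the libraries. With all 18 libraries r of Rny1 and Rpl30 was 0.08 and r of Rmrp and Ptprm was 0.08. The r of Rpph1 was then 0.956 with Rpl10a and 0.604 with Rpl15.

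The 3 libraries with over 5% of pairs unaligned differed from the rest in some members. In edgeR's quasi-likelihood test of these 3 against the other 15 with dose in the model, 36.2% of all genes were called (19.9% higher, 16.3% lower). Of the 6 members 2 were called, a share near this background, and both were lower. Rmrp was lower by a log2 change of -1.07 ± 0.32 (SE; adjusted p = 0.0150) and ENSMUSG00000065037 by -0.42 ± 0.13 (adjusted p = 0.0141).

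Rpph1 had -0.28 ± 0.12 (adjusted p = 0.0781) and Rn7s6 -0.58 ± 0.91. Rny1 and Rny3 had 0.38 ± 0.36 and 0.67 ± 0.38, also not called. With 1 library left out, 4034 to 5163 of all genes were called in this test. Without control replicate 1 the estimates for Rny1 and Rny3 turned to -0.61 and -0.39, and Rmrp was no longer called (-0.87, adjusted p = 0.0897), while ENSMUSG00000065037 was lower by more (-0.71, adjusted p = 5.28e-05). Without 30 µM replicate 6 neither Rmrp (-0.93, adjusted p = 0.0992) nor ENSMUSG00000065037 (-0.18, adjusted p = 0.209) was called, while Rpph1 was lower (-0.50, adjusted p = 0.00533) and Rny3 higher (1.12, adjusted p = 0.0414). With the replicate number in the model as well, neither Rmrp (adjusted p = 0.0664) nor ENSMUSG00000065037 (adjusted p = 0.0778) was called. Rn7s6 was called in that fit (-3.26, adjusted p = 0.000106), in which control replicate 6 at 269 CPM shares its number with 10 µM replicate 6 at 15.1 CPM and 30 µM replicate 6 at 14.9 CPM.

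The members stood differently in each of the 3 libraries. In control replicate 1, Rny3 (317 CPM, 1255 counts) was 3.90 times and Rny1 (206 CPM, 815 counts) 3.18 times the median of the other 5 control libraries, above all of them. Of 12947 genes compared in the same way with the other 17 libraries, 0.888% had a higher ratio than Rny3 and 1.68% a higher one than Rny1. In the same library Rmrp (29.0 CPM, 115 counts) was 0.337 times the median of the other controls, Rn7s6 (7.32 CPM, 29 counts) 0.376 times and Rpph1 (3785 CPM) 0.597 times, all below the range of the 5. ENSMUSG00000065037 (9855 CPM) was 0.980 times and within it.

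In 30 µM replicate 6, ENSMUSG00000065037 (4289 CPM) was 0.427 times the median of the other 5 libraries of the dose. Rmrp (34.1 CPM, 252 counts) was 0.371 times and Rny1 (28.1 CPM, 208 counts) 0.395 times. All 3 were below the range of the 5. Rny3 (38.96 CPM) was 0.482 times its median but within the range, which reaches down to 36.8 CPM in 30 µM replicate 5. Rpph1 (0.938 times) and Rn7s6 (1.13 times) were within their ranges.

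In 10 µM replicate 6, which has the fewest unaligned pairs of the 3, the distances were smaller. ENSMUSG00000065037 was 0.721 times the median of the other 5, Rmrp 0.685, Rny1 0.737 and Rpph1 0.779 times, each below the range. Rny3 (0.984 times) and Rn7s6 (0.820 times) were within it. Rmrp was below its dose's other libraries in 3 of 3 libraries with many unaligned pairs. How many of all genes were so was not counted. The same holds for genes outside such a range in a single one of these libraries, so no position is read as particular to a member. Against the median of the other 17 libraries, 2.09% of genes had a lower ratio than Rmrp in control replicate 1. In 30 µM replicate 6 this was 3.85% and in 10 µM replicate 6 16.5%. The Y RNAs stood on opposite sides in control replicate 1 and 30 µM replicate 6.

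The ratio of ENSMUSG00000065037 to Rpph1 shows the same contrast. It was 2.60 in control replicate 1 and 0.675 in 30 µM replicate 6, outside the 1.11 to 1.80 of the 15 libraries on either side.

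**Figure D5:**
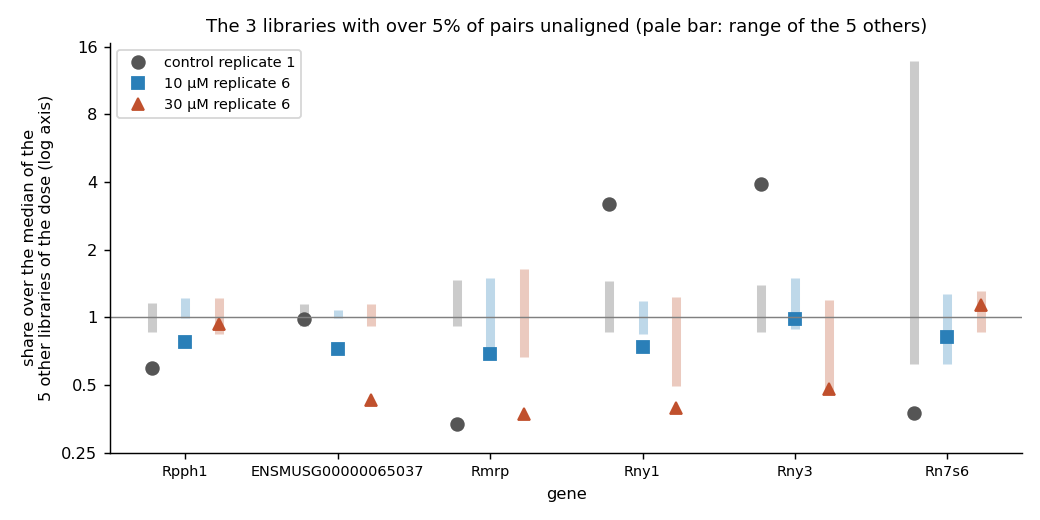
Share of each gene in the 3 libraries with over 5% of pairs unaligned, divided by the median of the other 5 libraries of the same dose (log axis); pale bars give the range of those 5. Rmrp is below the range in all 3, and how many of all genes are so was not counted. Rny1 and Rny3 are 3.18 and 3.90 times the median in control replicate 1, and the tall bar of Rn7s6 reaches up to control replicate 6.

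Genes for proteins of ribonucleoprotein particles and for RNA polymerase III with its factors were taken as 7 lists with 71 genes, 70 of which were tested. For the 7SK particle no member carries the name of its RNA. Whether ENSMUSG00000065037 is that RNA could not be looked up in the annotation used. In the 3 dose comparisons 0 of the 70 were called, as were 0 of all genes. At 30 µM the median log2 fold change was 0.01 for the 11 genes of RNase P and RNase MRP proteins, 0.03 for 9 genes of the signal recognition particle and its receptor and 0.02 for the 7 genes of the 7SK particle and P-TEFb. It was -0.06 for the 8 telomerase protein genes, -0.12 for the 3 Ro and La genes, 0.05 for the 13 RNA polymerase III subunits and -0.02 for the 19 initiation factors with Maf1. Over all genes it was 0.01.

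For replicate number 1 of the 70 genes was called (1.43%), the polymerase subunit gene Polr3b (adjusted p = 0.0163). For the 3 libraries with many unaligned pairs 28 of 70 (40%) were called, close to the 36.2% of all genes. In the RNase P and MRP list 3 of 11 were called, all lower, with Pop4 (-0.42) and Rpp40 (-0.38) first. In the signal recognition particle list 6 of 9 were called, 5 of them lower, with Srp68 higher (0.61) and Srp14 lower (-0.29).

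Of the 3 Ro and La genes 2 were lower, Ssb (-0.43), which encodes La, and Puf60 (-0.33). In the 7SK list 3 of 7 were called, Cdk9 (0.73) and Ccnt2 higher and Larp7 (-0.30) lower. In the telomerase list 3 of 8 were called, with Naf1 (0.99) and Tert higher and Nop10 (-0.41) lower. For the polymerase subunits 4 of 13 were called, with Polr1d (-0.28) and Crcp (-0.32) first. For the initiation factors 7 of 19 were called, 5 higher, with Pou2f1 (0.93) and Snapc5 (-0.83) first. All these calls are at an adjusted p under 0.05 in the same edgeR test.

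Of 23 other small RNA genes taken by symbol, which include RNase P-like, 5S ribosomal and small nuclear RNA genes, 15 had 0 counts in all libraries and 4 had 1 to 2 counts in all. Only Rprl3 and Rnu12, the RNA of a minor spliceosome particle, had at least 10 counts in every library. Rprl3, an RNase P RNA-like gene, had 773 to 1389 CPM (242256 counts). Its counts were 12.8% to 16.7% of those of Rpph1 in the 15 libraries and up to 34.8% in all 18, and r of both was 0.840 and 0.192.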

How the data were processed

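RNA was measured in 18 libraries of MEFs, 6 per uracil dose, grouped by the dose and replicate number in their titles. The authors deposited raw counts, that is, how many read pairs of a library fell on an Ensembl gene, without scaling. The submitters' processing notes name FastQC, HISAT2, SAMtools 1.2 and HTSeq and list the build GRCh38, although the gene identifiers are those of mouse. Which mouse build and annotation were used, and whether counting used strand, is not given in the sources used here. Overlapping genes therefore have uncertain counts, and pairs with several places to align were left out by the authors' counting. The closing entries of the table for uncounted pairs (unaligned pairs among them, 1.72% to 54.2% of a library) entered neither library sizes nor tests. All value columns matched a sample (0 did not).

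The members and the partner lists were chosen with earlier results of these data known. GENCODE M39 (GRCm39) gave symbols for 51731 of 55487 identifiers, as well as positions and sequences; the authors may have used another build. Of several entries with a member's symbol, the one with the most counts was used. Copies were searched in GRCm39 with blastn 2.17.0.

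The main tests used edgeR 4.0.16 in R 4.3.3 (filterByExpr on dose, TMM library sizes, robust quasi-likelihood fits, two-sided tests, Benjamini-Hochberg adjustment over all genes tested, threshold 0.05). Dose was the only term, and replicate number and the libraries with over 5% of pairs unaligned were each tested with dose in the model. Standard errors were derived from the fold change and its F statistic. Shares are CPM of gene counts. Exact permutation tests compared mean shares. The scripts were tested on simulated data. A count of 0 was taken to allow up to 3 counts, for counting error only.

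The members were named in every comparison. From each partner list the 2 genes with the smallest p past the threshold were named for replicate number and for unaligned pairs, and any gene past it for dose. For likeness the 3 genes with the highest r were named (1 gene and 1 sequence are not reported here), and other small RNA genes by symbol if they had at least 10 counts in every library. Dkc1, Ccnt2 and Tert were named after their values were seen. Alternatives used DESeq2 1.42.0, limma 3.58.1 voom with quality weights, other library sizes and filters, the replicate number as a block, and fewer libraries.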

Additional observations from a re-analysis of the deposited data

Results flagged for a closer look

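In 18 sets of 6 libraries (6 genes at 3 doses) the gap between the most extreme library and its neighbour, divided by the range of the 6, exceeded Dixon's 95% critical value in 5. Chance alone flags about 1 in 20 sets. Rn7s6 in control replicate 6 stood highest at 269 CPM, a gap of 0.936 of the range. Rny3 and Rny1 in control replicate 1 stood highest at 317 CPM and 206 CPM, with gaps of 0.827 and 0.742. ENSMUSG00000065037 stood lowest at 7393 CPM in 10 µM replicate 6 and at 4289 CPM in 30 µM replicate 6, with gaps of 0.765 and 0.681. Of these 5 values 4 belong to libraries with over 5% of pairs unaligned, and control replicate 6 is not one of those. The causes were not tested.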

How the results depend on the processing

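Depth limits the members unequally: control replicate 1 gave 29 counts of Rn7s6 and 115 of Rmrp, against 15003 of Rpph1. No alternative called a member for dose. Of 276 values of single members under the 10 settings other than leaving out 1 library, 255 kept their direction and their side of the threshold.

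Values below are log2 fold changes whose sign turned, none of them called; the cause was not tested. Without the 3 libraries with over 5% unaligned pairs, ENSMUSG00000065037 was 0.050 at 10 µM and 0.0033 at 30 µM, Rny1 0.092 and Rny3 0.032 at 10 µM. With limma voom, ENSMUSG00000065037 was 0.054 and 0.020 and Rny1 0.10 and 0.015 at 10 and 30 µM, and Rny1 -0.23 for unaligned pairs.

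Leaving out 1 library gave, at 10 µM, -1.98 to 0.061 for Rn7s6, -0.055 to 0.045 for ENSMUSG00000065037, -0.49 to 0.039 for Rny1 and -0.66 to 0.010 for Rny3, and at 30 µM -0.13 to 0.22 for Rmrp. For unaligned pairs it gave -1.05 to 0.092 for Rn7s6, -0.61 to 0.82 for Rny1 and -0.39 to 1.12 for Rny3.

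Of the 6 members, 0 were called for replicate number, but 1 was with DESeq2 (ENSMUSG00000065037), with limma voom (the same gene) and without the 3 libraries (Rn7s6), and 0 to 1 when 1 library was left out (ENSMUSG00000065037 without control replicate 6, adjusted p = 0.00922, edgeR). For unaligned pairs 2 were called, 1 with limma voom (ENSMUSG00000065037) and 1 with the replicate block (Rn7s6, not among the 2). When 1 library was left out, 1 to 2 were called. It was 1 without control replicate 1, and a different pair, Rpph1 and Rny3, without 30 µM replicate 6. With 1 library left out, 1272 to 3498 of all genes were called for replicate number and 4034 to 5163 for unaligned pairs. For DESeq2, limma voom and the block the number over all genes is not given here. No call is read as particular to the members.

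The labels share replicate numbers across doses without saying that a number marks a shared culture. Correlations of the deviations of same-numbered libraries ran from -0.10 to 0.71 (median 0.40). Of 18 pairs 16 were over 0.1, and both others include control replicate 1. In 19 of 36 cases the closest library of another dose had the same number, and in 5 of 18 libraries this held for both other doses. Since not every pair passed 0.1, the numbers were not taken as pairs, and the data do not settle whether they mark shared cultures. With the replicate number as a block 0 members and 0 genes were called for dose, and Rn7s6 was -0.72 at 10 µM and -1.03 at 30 µM. With the block and without the 3 libraries, Rmrp was -0.052 at 10 µM and -0.11 at 30 µM, Rny1 0.17 and Rny3 0.080 at 10 µM, and Rn7s6 -0.056 and -0.40 at 10 and 30 µM.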
